A study of Homo sapiens with 4 samples.

Results

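The genes described here are the Wnt ligands, their receptors, the central signalling components and the feedback genes of the pathway, in RNA of A549 cells. They were taken from the deposited table by symbol: every WNT and FZD gene, and 22 named genes (LRP4, LRP5, LRP6, ROR1, ROR2, RYK, TCF7, TCF7L1, TCF7L2, LEF1, AXIN1, AXIN2, CTNNB1, APC, DKK1, DKK3, NKD1, NKD2, RNF43, ZNRF3, LGR4 and LGR5). This gave 51 of the table's 26255 genes, among them 19 ligands and 10 Frizzled receptors. A549 is an established human lung adenocarcinoma line, and each of 4 groups was 1 library. The acinar tumor and the solid tumor libraries were A549 cells cut by laser microdissection from areas of gland-like (acinar) or sheet-like (solid) growth in A549 xenografts in mice. The mix culture and the single culture libraries were GFP-labelled A549 cells sorted from 3D tumor colonies, read as grown with cancer-associated fibroblasts (CAFs, the fibroblasts of tumor stroma) for the mix and without them for the single culture. The titles say only mix and single, and the protocol names no other culture condition. The number of animals, tumors or cultures behind a library, whether both tumor types came from 1 tumor, and the origin of the CAFs were not given in the sources used here.

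Wnt proteins are secreted lipid-modified ligands that bind Frizzled receptors at the cell surface. With LRP5 or LRP6 as co-receptor the signal stops the destruction complex of APC, AXIN and kinases from breaking down β-catenin, the product of CTNNB1, which then acts in the nucleus with TCF and LEF transcription factors. Other ligands, WNT5A the best known, signal through ROR and RYK receptors without β-catenin and steer cell polarity and movement. The pathway holds itself in check through genes that it induces in many tissues, such as AXIN2, NKD1, RNF43, ZNRF3 and DKK1, and R-spondins acting through LGR receptors lift the brake set by RNF43 and ZNRF3. In the lung, Wnt signals shape branching and help to keep alveolar stem cells.

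The promoters of DKK1 and TCF7 are shown because these 2 genes, a secreted inhibitor and a transcription factor of the pathway, stood past 2-fold in opposite directions between the tumors. Each window runs from 250 bases before to 50 bases after a start site, 5′ to 3′ on the strand of the gene, from RefSeq on build GRCh38.p14, whereas the submitters' notes name hg19 for the expression table. The windows lie on the plus strand at chr10:52314031-52314330 for DKK1, chr5:134115363-134115662 for the first start of TCF7 and chr5:134123368-134123667 for the second. Capitals mark the TCF/LEF core, searched on both strands as CTTTGAA, and equally as CTTTGAT, as CTTTGTA and as CTTTGTT.
DKK1: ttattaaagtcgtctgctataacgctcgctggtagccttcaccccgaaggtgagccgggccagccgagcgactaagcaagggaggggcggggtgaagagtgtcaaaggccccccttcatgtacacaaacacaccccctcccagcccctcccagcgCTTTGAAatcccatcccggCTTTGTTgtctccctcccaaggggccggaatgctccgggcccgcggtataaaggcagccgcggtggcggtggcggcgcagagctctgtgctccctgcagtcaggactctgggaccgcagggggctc
TCF7, first start: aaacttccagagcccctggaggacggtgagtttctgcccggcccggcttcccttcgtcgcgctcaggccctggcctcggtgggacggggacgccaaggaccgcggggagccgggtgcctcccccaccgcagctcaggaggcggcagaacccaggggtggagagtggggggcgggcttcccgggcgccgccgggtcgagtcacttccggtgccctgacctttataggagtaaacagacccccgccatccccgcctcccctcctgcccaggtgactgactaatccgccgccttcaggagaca
TCF7, second start: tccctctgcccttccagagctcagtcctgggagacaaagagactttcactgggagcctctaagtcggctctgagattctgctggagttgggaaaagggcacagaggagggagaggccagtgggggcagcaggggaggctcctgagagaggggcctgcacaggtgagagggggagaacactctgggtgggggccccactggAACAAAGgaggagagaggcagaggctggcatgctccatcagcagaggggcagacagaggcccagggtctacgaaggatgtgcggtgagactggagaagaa
The DKK1 window held 2 such words, neither overlapping the other, beginning 95 and 76 bases before the start site. The second TCF7 window held 1, on the opposite strand, and the first held none. Windows were found for 36 of the 51 genes, and the feedback genes AXIN2, NKD1 and ZNRF3 were among those without one. Of the 44 windows found, 4 held a word (9.09%), the others being 1 each for TCF7L2 and WNT3. Among all 35116 windows of the table the share was 13.8%. A match describes these letters only.

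Levels are given in scaled counts, which are the deposited normalised fragment counts divided by the same constant (8.94) in every library. They are not divided by gene length, so they compare libraries for a gene and not genes with each other. The libraries held 6632999 fragments in the acinar tumor, 7265458 in the solid tumor, 12184275 in the mix and 10965216 in the single culture. Epithelial markers were present in all libraries, their 6 genes summing to between 4715 and 11993 scaled counts. They were not all at like levels. EPCAM was at 28.1 and 20.3 in the acinar and solid tumor and at 2.09 and 2.31 in the mix and single culture. KRT19 was at 818 and 607 in the acinar and solid tumor and at 15.1 and 33.4 in the mix and single culture. The 6 alveolar markers summed to 5.43 and 8.25 in the acinar and solid tumor and to 1.45 and 2.22 in the mix and single culture. Of these, SFTPB, SFTPD and NAPSA reached 1 scaled count in some library and 4.20 or less in all, and NKX2-1, SFTPA1 and SFTPC stayed at 0.267 or less. Of 15 fibroblast markers, which summed to 765 and 337 in the acinar and solid tumor and to 422 and 296 in the mix and single culture, 10 reached 1 scaled count in some library. MFAP5 was at 563 and 225 in the acinar and solid tumor and at 0 in both cultures. LUM was at 55.4 and 19.6 in the acinar and solid tumor and at 0.0805 and 0 in the mix and single culture. COL5A1 was at 94.7 and 24.5 in the acinar and solid tumor and at 285 and 176 in the mix and single culture. FBLN1 was at 11.2 and 27.4 in the acinar and solid tumor and at 89.4 and 75.0 in the mix and single culture. DCN and COL1A2 stayed at 0.280 or less and POSTN was at 0 in all 4. Of 8 endothelial markers only PLVAP reached 1 scaled count, in the acinar tumor, and it was at 0 in the other 3 libraries. The 8 leukocyte markers summed to 146 and 239 in the acinar and solid tumor and to 44.0 and 49.9 in the mix and single culture. WNT2, a ligand that lung fibroblasts make, was listed at 0 in all 4 libraries. In the tumors the host cells were mouse cells and the build named was human, so these values cannot be read as numbers of host cells. Whether mouse reads were assigned to human genes was not tested. Otherwise, in bulk samples fewer cells of a type and less RNA per cell cannot be told apart.

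Of the 51 genes, 40 reached 1 scaled count in at least 1 library and 29 did so in all 4. Another 6 (LEF1, LGR5, ROR2, WNT1, WNT3A and WNT8B) were above 0 but under 1 throughout, and 5 (FZD10, WNT2, WNT8A, WNT9B and WNT16) were listed at 0 in every library. A count of 0 allows up to 0.465 scaled counts in the acinar tumor, 0.420 in the solid tumor, 0.242 in the mix and 0.267 in the single culture, for counting error only. LEF1 rested on 1 fragment in each of 3 libraries and none in the mix culture, so TCF7, TCF7L1 and TCF7L2 were the TCF/LEF factors with readable levels.

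**Figure D1:**
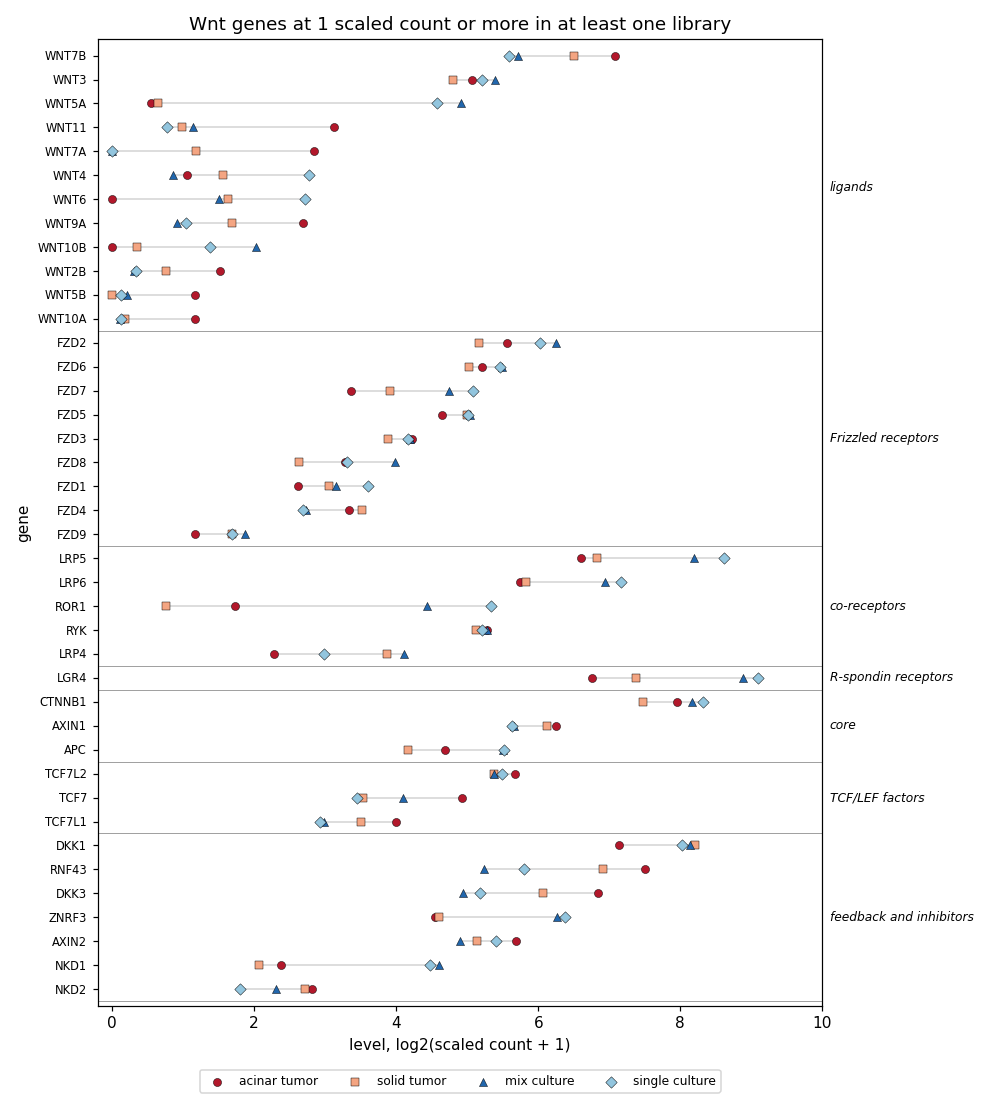
Levels of the 40 Wnt genes that reached 1 scaled count in at least 1 library, grouped by role. The horizontal axis is log2(scaled count + 1), each symbol is 1 library and grey lines span its 4 values; WNT5A, ROR1, NKD1 and ZNRF3 show tumors at the left and cultures at the right.

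The broadest difference ran between the settings. In both tumors WNT5A and its receptor ROR1 were at 15 fragments or fewer, and with them LRP5, LRP6, LGR4, ZNRF3, NKD1 and WNT10B were lower than in both cultures, while RNF43 and WNT7A were higher. A gene was counted where both tumors lay at least 2-fold above, or below, both cultures on log2(scaled count + 1), among genes at 1 or more in some library. This held on the lower side for 8 of 40 Wnt genes, against 8.22% of all 14561 genes compared, and on the higher side for 2 of 40, against 9.67%. With a pseudocount of 5, WNT10B and WNT7A were no longer counted. The median log2 difference was -0.35 for the 40 genes and 0.02 for all genes. By any amount, both tumors were below both cultures for 17 of the 40 and above them for 11, where the shares over all genes were 38.7% and 39.8%. Xenograft and culture, microdissection and cell sorting cannot be told apart here, and with 1 library a group there is no test. Of the markers compared, 3 of 6 epithelial and 3 of 5 leukocyte ones were past 2-fold higher in the tumors and none lower, and of 10 fibroblast ones 2 were higher and 3 lower; their part in these results was not tested.

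WNT5A, the ligand best known for signalling without β-catenin, was at 0.465 and 0.559 scaled counts in the acinar and solid tumor, which is 3 and 4 fragments, against 29.1 in the mix and 22.8 in the single culture. The nearest pair, single culture and solid tumor, differed 40.7-fold (95% counting interval 15.7 to 150.4). ROR1, a receptor kinase that binds WNT5A, was at 2.33 and 0.699 in the acinar and solid tumor and at 20.6 and 39.2 in the mix and single culture. Its nearest pair differed 8.86-fold (5.27 to 16.1). The related receptor ROR2 was listed at 0 in both tumors and had 10 fragments in the mix and 7 in the single culture, or 0.805 and 0.622 scaled counts. ROR2 was too low to be compared, and the interval of its nearest pair included no difference. RYK, another Wnt receptor of this branch, had 37.7 and 33.7 in the acinar and solid tumor and 38.0 and 35.8 in the mix and single culture, with the settings overlapping.

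The co-receptors of β-catenin signalling were lower in the tumors too. LRP5 was at 96.3 and 113 scaled counts in the acinar and solid tumor and at 292 and 391 in the mix and single culture, the nearest pair differing 2.58-fold (2.39 to 2.79). LRP6 was at 52.4 and 55.8 in the acinar and solid tumor against 122 and 143 in the mix and single culture (nearest pair 2.18-fold, 1.95 to 2.44). In both genes the 2 tumors lay close together and the cultures apart from them. LGR4, an R-spondin receptor, was at 107 and 165 in the acinar and solid tumor against 472 and 544 in the mix and single culture. Its nearest pair differed 2.86-fold (2.68 to 3.04). Its relative LGR5, known as a marker of intestinal stem cells, was listed at 0 in both tumors. LGR5 rested on 2 and 6 fragments in the mix and single culture. LGR6, another R-spondin receptor, overlapped between the settings. It was at 38.9 and 24.5 in the acinar and solid tumor and 24.0 and 33.3 in the mix and single culture.

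Among the feedback genes the 2 ubiquitin ligases that remove Frizzled receptors went opposite ways. ZNRF3 was at 22.5 and 23.4 scaled counts in the acinar and solid tumor and at 76.1 and 81.7 in the mix and single culture, the nearest pair differing 3.26-fold (2.76 to 3.86). RNF43 was at 180.1 and 119 in the acinar and solid tumor and at 36.6 and 54.9 in the mix and single culture, so that its nearest pair was 2.17-fold higher in the tumor. The RNF43 values include fractional fragments, and the gene shares exon bases with SUPT4H1 on its own strand in GENCODE 29, so no interval is given. SUPT4H1 was also higher in the tumors, at 164 and 151 in the acinar and solid tumor and 102 and 104 in the mix and single culture. Its part in the RNF43 values was not tested. NKD1, which binds Dishevelled and damps the signal, was at 4.19 and 3.22 in the acinar and solid tumor and at 23.3 and 21.2 in the mix and single culture (nearest pair 5.05-fold, 3.39 to 7.83). Its paralog NKD2 was at 6.05 and 5.59 in the acinar and solid tumor and at 3.95 and 2.49 in the mix and single culture, the interval of the nearest pair including no difference. AXIN2, the feedback gene most often read as a marker of β-catenin activity, had 50.5 and 34.1 in the acinar and solid tumor and 28.7 and 41.4 in the mix and single culture, so the settings overlapped. DKK3, a relative of the LRP inhibitor DKK1, was at 114 and 66.3 in the acinar and solid tumor and at 29.8 and 35.4 in the mix and single culture, with no overlap (nearest pair 1.87-fold, 1.64 to 2.15).

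**Figure D2:**
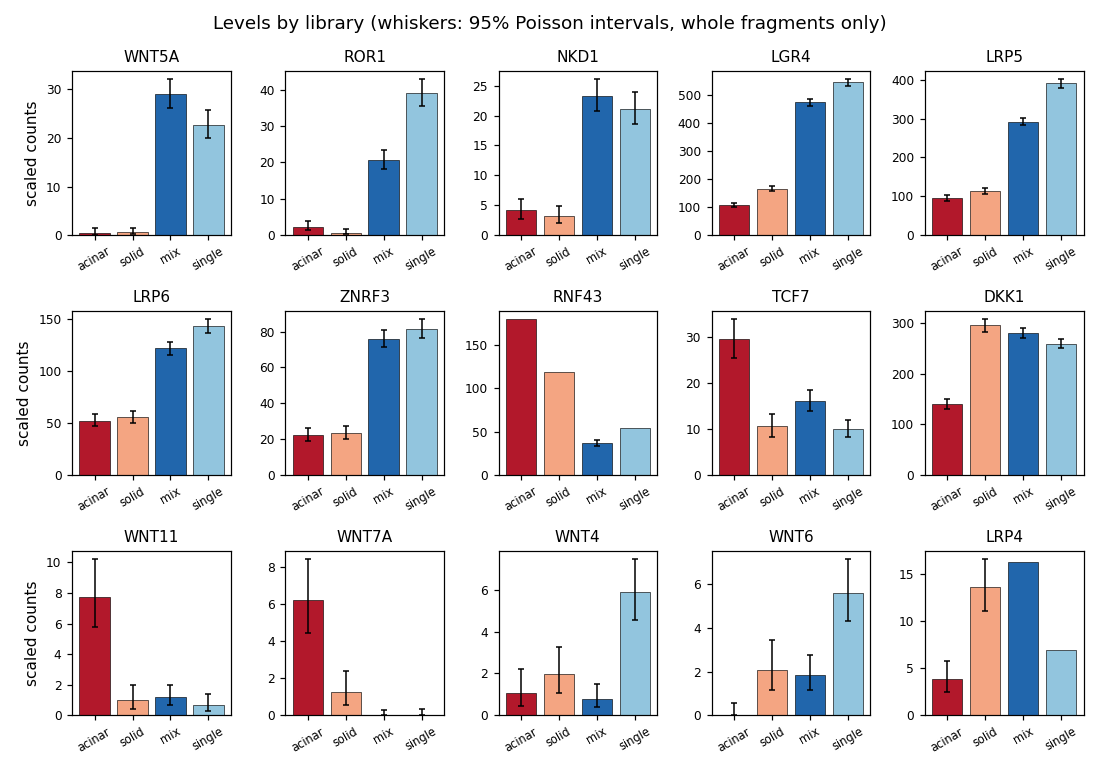
Scaled counts of 15 Wnt genes in each library (vertical axes start at 0 and differ between genes), with the acinar tumor in red, the solid tumor in orange, the mix culture in dark blue and the single culture in light blue. Whiskers are 95% Poisson intervals of the fragments and are left out where fragments were fractional (RNF43, LRP4); WNT5A is at 0.465 and 0.559 in the tumors and at 29.1 and 22.8 in the cultures.

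The core components differed less. CTNNB1 was at 247 and 176 scaled counts in the acinar and solid tumor against 287 and 317 in the mix and single culture (nearest pair 1.16-fold, 1.10 to 1.23). APC, the scaffold of the destruction complex, was at 24.7 and 16.9 in the acinar and solid tumor against 44.3 and 44.9 in the mix and single culture (nearest pair 1.80-fold, 1.503 to 2.16). AXIN1, its limiting scaffold in many cells, went the other way, at 74.9 and 68.4 in the acinar and solid tumor and 49.4 and 48.3 in the mix and single culture (nearest pair 1.39-fold, 1.23 to 1.56). TCF7L2 overlapped between settings, at 50.2 and 40.6 in the acinar and solid tumor and 40.5 and 44.1 in the mix and single culture. TCF7L1, which represses targets in many cells, was at 15.0 and 10.3 in the acinar and solid tumor and at 6.92 and 6.58 in the mix and single culture.

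Of the 9 Frizzled receptors compared, none passed the 2-fold rule, which 8.22% of all genes did on the lower and 9.67% on the higher side, so that 9 genes would hold few in any case. The log2 difference was below 0 for 8 of the 9 receptors and for 7148 of all 14561 genes. FZD7 had the largest, at 9.30 and 14.1 scaled counts in the acinar and solid tumor against 25.7 and 32.8 in the mix and single culture (nearest pair 1.82-fold, 1.45 to 2.30). FZD2 was at 46.0 and 35.0 in the acinar and solid tumor against 75.0 and 64.1 in the mix and single culture. FZD4 alone was on the higher side, at 9.10 and 10.5 in the acinar and solid tumor and 5.65 and 5.46 in the mix and single culture. It shares exon bases with PRSS23 and had fractional fragments, so its fragments are uncertain. PRSS23 was at 726 and 546 in the acinar and solid tumor and at 423 and 310 in the mix and single culture. FZD6 was at 36.0 and 31.6 in the acinar and solid tumor and at 43.7 and 43.2 in the mix and single culture (nearest pair 1.20-fold, 1.02 to 1.41). The nearest pair was within counting error for FZD1 (5.12 and 7.27 in the acinar and solid tumor, 7.89 and 11.2 in the mix and single culture), and FZD5 had 24.0 and 31.0 in the acinar and solid tumor and 31.9 and 31.2 in the mix and single culture. FZD8 was at 8.68 and 5.17 in the acinar and solid tumor and at 14.8 and 8.89 in the mix and single culture, the acinar tumor and the single culture lying within counting error. The settings overlapped for FZD9 and for FZD3, which was at 17.7 and 13.7 in the acinar and solid tumor and at 17.2 and 16.9 in the mix and single culture.

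Among the ligands WNT7A was detected in the tumors and listed at 0 in both cultures. It was at 6.20 and 1.26 scaled counts in the acinar and solid tumor, the lower of these at least 4.72-fold above the limit that 0 allows per culture library for the fragments as observed. The counting interval of the solid tumor over the mix culture begins at 3.43-fold. Its paralog WNT7B was at 135 and 90.1 in the acinar and solid tumor against 51.4 and 47.0 in the mix and single culture (nearest pair 1.75-fold, 1.57 to 1.96). WNT9A was at 5.43 and 2.24 in the acinar and solid tumor against 0.886 and 1.07 in the mix and single culture, its nearest pair lying within counting error (2.10-fold, 0.931 to 4.86). WNT10B ran the other way, with 0 and 2 fragments in the acinar and solid tumor and 38 and 18 in the mix and single culture (nearest pair 5.72-fold, 1.37 to 50.8). WNT3, an activator of β-catenin signalling, was at 32.6 and 26.9 in the acinar and solid tumor and at 41.0 and 35.8 in the mix and single culture (nearest pair 1.10-fold, 0.929 to 1.31).

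**Figure D3:**
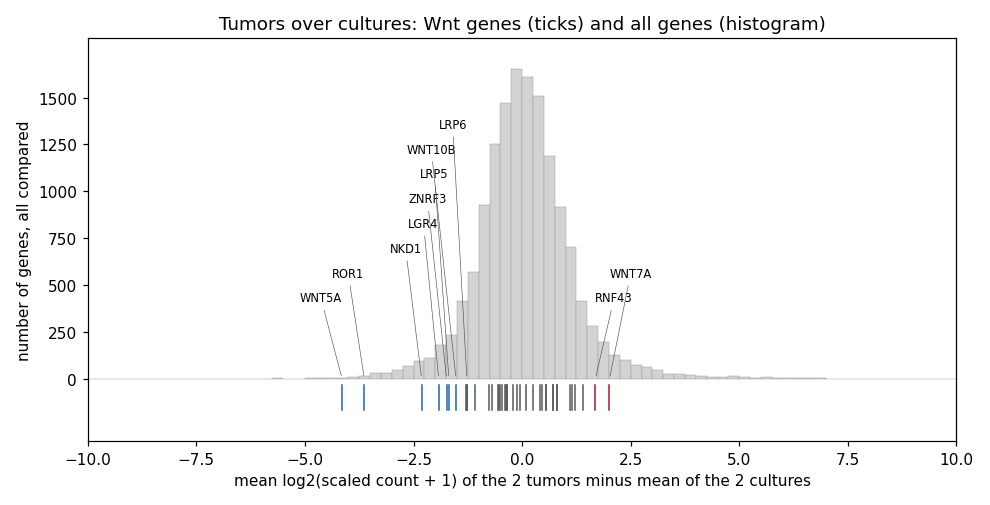
Histogram of the difference of mean log2(scaled count + 1), tumors minus cultures, over the 14561 genes compared, with 1 tick below for each of the 40 Wnt genes. Blue ticks mark the 8 genes at least 2-fold lower in both tumors, red ticks the 2 at least 2-fold higher, and the names give these 10 genes.

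Acinar and solid growth of the same line were set against each other to ask what goes along with the gland-like form. In the acinar tumor the ligands WNT11, WNT7A and WNT5B and the transcription factor TCF7 were higher, and the inhibitor DKK1, the ligand WNT6 and the receptor LRP4 were lower. At 2-fold or more on log2(scaled count + 1), 4 of 38 Wnt genes were higher, against 1.98% of all 13979 genes compared, and 3 were lower, against 2.55%. The median log2 ratio of the 38 was 0.30, with 25 above 0 and 13 below. Over all 13979 genes it was 0.01, with 7098 above 0 and 6881 below. With a pseudocount of 5, WNT5B, WNT6 and WNT7A were no longer past the limit. The 31 Wnt genes not past it lay between -0.62 and 0.99. Some fibroblast markers differed between the same libraries, 4 of 8 compared being past 2-fold higher (COL5A1, LUM, MFAP5 and FAP) and 1 lower (FBLN1), as did the leukocyte markers CD14 and LYZ, both lower. Their part in these results was not tested.

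WNT11, a ligand known for cell movements in development, stood at 7.75 in the acinar and 0.979 in the solid tumor (7.92-fold, 3.57 to 20.7), and at 1.21 and 0.711 in the mix and single culture. The acinar tumor was thus the library that stood out, resting on 50 fragments there against 7 in the solid tumor. WNT5B rested on 8 acinar tumor fragments and none in the solid tumor, at least 2.96-fold above the limit that 0 allows in that library for the 8 fragments as observed, with a counting interval that begins at 1.89-fold. Its levels in the mix and single culture were 0.161 and 0.0889. Of the 10 ligands compared, 8 had log2 ratios above 0, with a median of 0.86 and a range from -1.63 to 2.14. Of all 13979 genes, 7098 were above 0. WNT9A was 2.43-fold higher in plain ratio (1.31 to 4.69) and WNT7B 1.49-fold (1.35 to 1.66), while the WNT2B interval included no difference (12 fragments in the acinar and 5 in the solid tumor, 0.873 to 9.64). WNT10A had 8 fragments in the acinar tumor and 1 in the solid tumor (8.87-fold, 1.19 to 394).

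WNT6 was at 0 in the acinar tumor and had 15 fragments, or 2.10 scaled counts, in the solid tumor. For the 15 fragments as observed, that is at least 4.51-fold lower with the acinar library set to the limit that 0 allows, and the counting interval of the pair begins at 3.24-fold lower. WNT4 leaned the same way on 7 and 14 fragments in the acinar and solid tumor, with an interval from 5.28-fold lower to 1.47-fold higher. WNT4 and WNT6 both take part in the development of epithelial tubules.

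TCF7 reached 29.5 scaled counts in the acinar and 10.6 in the solid tumor (2.77-fold, 2.11 to 3.67), with 16.1 and 9.95 in the mix and single culture, so the acinar tumor had the highest of the 4 values. All of its fragments were whole, although its exons overlap those of SKP1 on the opposite strand, which was at 229 and 198 in the acinar and solid tumor and 154 and 153 in the mix and single culture. With the strand setting not given, reads over the shared bases are uncertain. TCF7L1 was 1.45-fold higher (1.06 to 1.99) and TCF7L2 1.24-fold higher (1.05 to 1.46), so all 3 factors with readable levels were higher. CTNNB1 was 1.40-fold higher (1.30 to 1.51), APC 1.46-fold (1.14 to 1.86) and AXIN2 1.48-fold (1.25 to 1.76). AXIN1 did not differ beyond counting error (1.10-fold, 0.964 to 1.24). RNF43 was 1.51-fold higher with fractional fragments and DKK3 1.71-fold higher (1.53 to 1.93).

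DKK1, the secreted inhibitor that binds LRP5 and LRP6, was at 140.3 scaled counts in the acinar and 295 in the solid tumor. This is a 2.10-fold lower level in the acinar tumor (1.95 to 2.28). With 279.7 in the mix and 259 in the single culture, the acinar tumor was the low library of the 4. LRP4, a relative of the co-receptors known from the neuromuscular junction, was at 3.88 in the acinar and 13.6 in the solid tumor (3.50-fold lower, 2.24 to 5.67). LGR4 was 1.54-fold lower (1.40 to 1.69) and LRP5 1.17-fold lower (1.06 to 1.31), whereas LGR6 was 1.59-fold higher (1.31 to 1.94). The LRP6 interval included no difference (0.919 to 1.23, as fold lower). ROR1 was on 15 and 5 fragments in the acinar and solid tumor (3.33-fold higher, 1.15 to 11.7), both far below either culture.

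Frizzled receptors went both ways between the tumors, 4 of 9 above 0 and 5 below. Of all 13979 genes, 7098 were above 0 and 6881 below. FZD8 was 1.68-fold higher (1.09 to 2.61) and FZD2 1.32-fold higher (1.11 to 1.56), whereas FZD7 was 1.52-fold lower (1.09 to 2.13) and FZD5 1.29-fold lower (1.05 to 1.60). Across the 36 Wnt genes with whole fragments in both tumors, the counting interval left out no difference for 16 on the higher and 7 on the lower side, against 18.3% and 16.7% of all genes so examined. That interval covers counting error alone, with no replicate behind it.

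**Figure D4:**
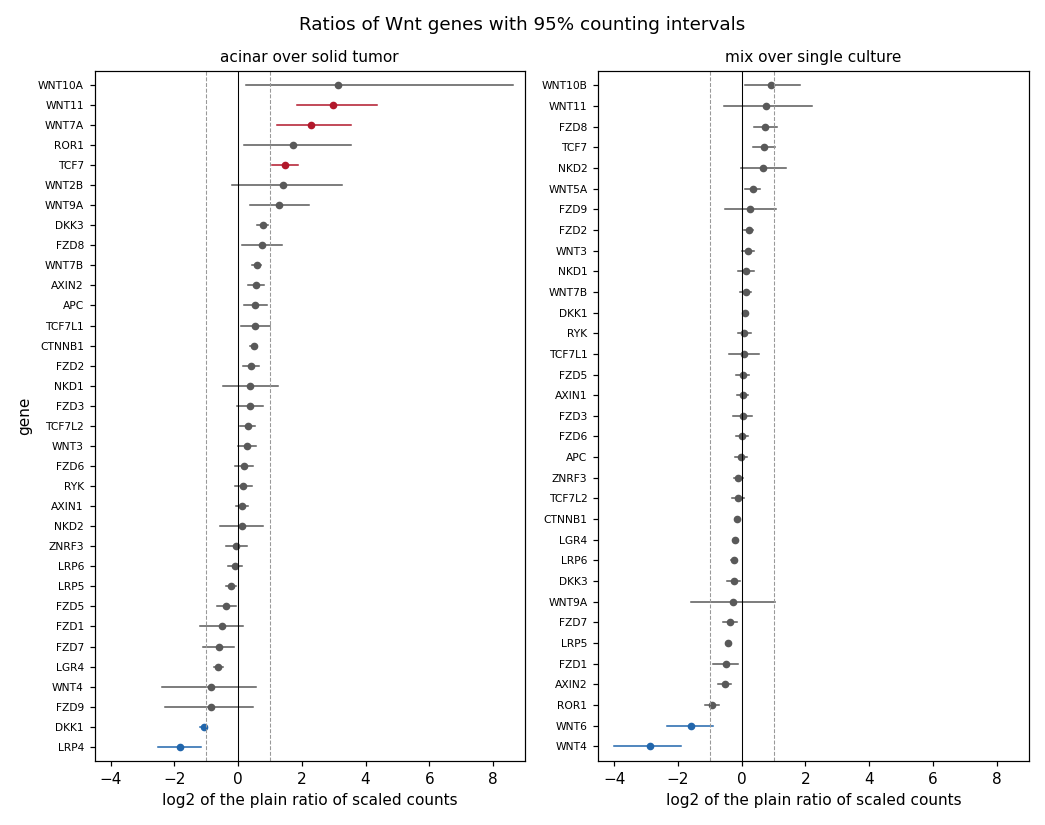
Log2 of the plain ratio of scaled counts for Wnt genes compared in the acinar over solid tumor (left) and the mix over single culture (right), with 95% counting intervals for genes with whole fragments and no 0. Dashed lines mark 2-fold; red and blue genes are past 2-fold higher and lower after 1 scaled count is added to each value, which WNT10A, ROR1, WNT2B and WNT9A are not.

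Between the cultures, the comparison asks what growth with CAFs goes along with in the A549 cells. In the mix culture the ligands WNT4 and WNT6 were lower and LRP4 was higher. With a pseudocount of 5 scaled counts in place of 1 none of these 3 passed 2-fold, and LRP4 also dropped out where only genes with whole fragments were used. Of 36 Wnt genes, 1 was past 2-fold higher, against 0.682% of all 13485 genes compared, and 2 were past 2-fold lower, against 1.74%. The median log2 ratio of the 36 was 0.03 and that of all genes 0.01, and the 33 genes not past the limit lay between -0.90 and 0.68. Of the 15 fibroblast markers 6 were compared here and 0 were past 2-fold in either direction. Of the 6 epithelial markers KRT19 was past 2-fold lower, at 15.1 in the mix and 33.4 in the single culture. Its part in these results was not tested.

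WNT4 was at 0.805 scaled counts in the mix and 5.87 in the single culture, a 7.29-fold lower level (3.72 to 15.9) on 10 and 66 fragments. WNT6 was at 1.85 in the mix and 5.60 in the single culture (3.02-fold lower, 1.85 to 5.11). The single culture therefore had the highest value of the 4 libraries for both ligands. WNT6 was past 2-fold lower in both comparisons, which share no library, as were 0.295% of all 12903 genes compared in both, and none of the 34 Wnt genes was past 2-fold higher in both (0.0543% of all genes). LRP4 was past 2-fold in opposite directions, as were 0.109% of all genes. It was at 16.2 in the mix and 6.89 in the single culture, with fractional fragments in these libraries. It shares exon bases with LRP4-AS1, which was at 0.310 scaled counts or less in all 4 libraries.

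TCF7 was 1.62-fold higher in the mix culture (1.28 to 2.06) and WNT5A 1.28-fold higher (1.09 to 1.51). WNT11 had 15 and 8 fragments in the mix and single culture, within counting error (1.70-fold, 0.676 to 4.63). FZD8, a receptor of the β-catenin branch, was at 14.8 in the mix and 8.89 in the single culture (1.67-fold higher, 1.30 to 2.15), and WNT10B was 1.91-fold higher (1.07 to 3.56). ROR1 was at 20.6 in the mix against 39.2 in the single culture (1.90-fold lower, 1.63 to 2.23). AXIN2 was 1.44-fold lower (1.25 to 1.66), and LRP5 1.34-fold lower (1.28 to 1.40). LRP6 was 1.18-fold lower (1.10 to 1.26), LGR4 1.15-fold lower (1.11 to 1.19) and CTNNB1 1.10-fold lower (1.05 to 1.16). RNF43 had 36.6 in the mix and 54.9 in the single culture. AXIN2 and RNF43 were thus lower in the mix than in the single culture and higher in the acinar than in the solid tumor. DKK1, at 1.08-fold higher in the mix culture (1.03 to 1.13), was close to level between the cultures. Intervals left out no difference for 7 of 33 Wnt genes with whole fragments on the higher side and 11 on the lower, against 23.4% and 20.4% of all genes so examined.

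Other genes of the pathway were taken from 5 lists. Between tumors and cultures their median log2 differences were -0.56 for extracellular modulators, -0.11 for the destruction complex, -0.90 for nuclear co-factors, -0.34 for polarity genes and -0.34 for β-catenin targets, beside 0.02 for all genes. Between the tumors the medians ran from 0.01 to 0.55 and between the cultures from -0.28 to 0.18, beside 0.01 for all genes in each. Of the Wnt secretion and extracellular modulator genes, 11 of 25 reached 1 scaled count. SFRP1, a secreted Frizzled-like decoy, was at 15.8 and 8.11 in the acinar and solid tumor and at 160.1 and 78.7 in the mix and single culture, and was past 2-fold higher in the mix culture (2.03-fold, 1.88 to 2.21). SFRP5, of the same family, was listed at 0 in both tumors and was at 5.96 and 8.09 in the mix and single culture. RSPO3, an R-spondin ligand of LGR4, was at 74.9 and 42.4 in the acinar and solid tumor and at 106 and 44.2 in the mix and single culture, a 2.41-fold higher level in the mix (2.17 to 2.68). These SFRP1 and RSPO3 values were the 2 past 2-fold higher among the 10 genes compared between the cultures, and none was lower. Of all genes, 0.682% were higher and 1.74% lower there. Between the tumors 0 of 7 were higher and 1 was lower, against 1.98% and 2.55% of all genes. The lower gene was the acrosomal Dickkopf relative DKKL1, listed at 0 in the acinar tumor against 1.12 in the solid tumor.

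Of the destruction complex and cytoplasmic genes, 0 of 20 passed 2-fold between the tumors, where 1.98% of all genes were higher and 2.55% lower. Between the cultures 0 of 19 passed, where 0.682% of all genes were higher and 1.74% lower. Lists of this size hold few or no such genes at these shares. Between the settings 1 of 20 was higher and 0 lower, against 9.67% and 8.22% of all genes. This was the Dishevelled-binding gene CXXC4, at 5.43 and 4.20 in the acinar and solid tumor against 0.322 and 0.711 in the mix and single culture. Of 16 nuclear co-factors, 3 were past 2-fold lower in both tumors and 0 higher, against 8.22% and 9.67% of all genes. These were BCL9, EP300 and CDC73. BCL9, a β-catenin co-activator, was at 14.9 and 15.7 in the acinar and solid tumor against 47.5 and 45.5 in the mix and single culture. EP300, an acetyltransferase, was at 42.9 and 47.1 in the acinar and solid tumor against 124 and 126 in the mix and single culture. CDC73, of the PAF1 complex, was at 33.3 and 32.7 in the acinar and solid tumor against 76.1 and 84.0 in the mix and single culture. Between the tumors 0 of the 16 passed, and between the cultures 1 of 16 was lower, against 1.74% of all genes. This was the co-repressor TLE4 (9.58 in the mix and 23.1 in the single culture, 2.41-fold, 1.93 to 3.02). Of 22 polarity genes compared between the settings, 6 were lower and 1 higher in the tumors, against 8.22% and 9.67% of all genes. PTK7, a Wnt co-receptor of the polarity branch, was at 0.465 and 0.979 in the acinar and solid tumor against 8.94 and 5.33 in the mix and single culture, the same side as WNT5A and ROR1. CELSR1, an atypical cadherin of planar polarity, was at 78.5 and 69.9 in the acinar and solid tumor against 207 and 223 in the mix and single culture. Its relative CELSR2 was at 33.0 and 22.7 in the acinar and solid tumor against 67.6 and 91.7 in the mix and single culture. The formin DAAM1 was the higher gene, at 46.7 and 24.9 in the acinar and solid tumor and 10.5 and 8.18 in the mix and single culture. In this list 0 of 20 passed between the tumors, and 2 of 22 were lower between the cultures, against 1.74% of all genes. These were DAAM2, at 0.731 in the mix and 2.80 in the single culture, and the phospholipase gene PLCB4, at 16.3 in the mix and 35.2 in the single culture (2.16-fold, 1.82 to 2.58).

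Of 24 genes reported elsewhere as β-catenin targets, 3 were past 2-fold higher and 7 lower in the tumors than in the cultures, against 9.67% and 8.22% of all genes. MMP7, a matrix protease, was at 131 and 95.4 in the acinar and solid tumor and 4.27 and 12.0 in the mix and single culture. TBX3, a T-box factor, was at 4.03 and 5.31 in the acinar and solid tumor and 35.3 and 44.2 in the mix and single culture, and the ephrin receptor EPHB3 was at 0.775 and 1.82 in the acinar and solid tumor against 9.90 and 15.2 in the mix and single culture. Between the tumors 1 of 22 was higher and 0 lower, against 1.98% and 2.55% of all genes. This was SOX4, at 235 in the acinar and 98.6 in the solid tumor (2.39-fold higher, 2.18 to 2.61). Between the cultures 2 of 24 were higher in the mix and 1 lower, against 0.682% and 1.74% of all genes. TERT, the telomerase enzyme, was at 11.9 in the mix and 0.800 in the single culture (14.9-fold higher, 7.64 to 33.2). CCN4, a secreted matricellular protein listed under its older symbol WISP1, was at 10.8 in the mix and 2.13 in the single culture (5.06-fold higher, 3.26 to 8.17). Both were listed at 0 in the 2 tumors, and MMP7 was past 2-fold lower in the mix culture (2.81-fold, 2.03 to 3.94).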

How the data were processed

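The authors deposited 1 table of a signal value per gene symbol and library, which its header calls raw signal. Tools listed, per the submitters' processing notes, were Cuffdiff 2.2.1, SAMtools 1.0, TopHat2 2.0.13 and Bowtie2 2.2.3, with build hg19. Annotation, strand setting and filters: not given in the sources used here. Per library, 90.0% to 91.1% of values above 0 were whole multiples, within 0.05 fragment, of 1 step, read as the value of 1 fragment. Values were divided by 8.94. Because part of the values is fractional, no count model was fitted, and with 1 library per group there is no p-value. Ratios use a pseudocount of 1 scaled count, over genes at 1 or more in a library compared. Folds printed for a gene are plain ratios. The 95% intervals came from an exact binomial split of the pair's whole fragments (Clopper-Pearson) and cover counting error only, since fragments are not independent molecules. Of the 51 genes 17 share exon bases with another gene in GENCODE 29, among them DKK1, NKD1, TCF7, WNT4 and WNT11, where assignment is uncertain; FZD4, LRP4 and RNF43 had fractional fragments. Named were the genes past 2-fold, the core genes, those at 5 scaled counts or more, and up to 4 genes per list and comparison. Members and lists were chosen with earlier results of these data known. The calculation was tested on simulated data. Python 3.11.15 with scipy 1.17.1 was used.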

Additional observations from a re-analysis of the deposited data

How the results depend on the processing

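Each comparison was repeated under 8 alternatives. No log2 ratio of a Wnt gene past 2-fold changed sign, but only the changes of scaling could have changed one, and these shifted the medians little. With a pseudocount of 0.1, 8 of 38 Wnt genes were past 2-fold higher in the acinar tumor, against 478 of all 13979 genes. In the tumors over cultures these were 4 of 40, against 1857 of all 14561 genes. With a pseudocount of 5 the Wnt genes numbered 2 and 1, against 114 and 864 of the same genes. With a pseudocount of 5, 0 of 36 passed in either direction in the mix culture, against 33 higher and 73 lower of all 13485 genes. The log2 ratios of WNT4, WNT6 and LRP4, which had been past the limit, became -0.90, -0.63 and 0.84. A larger pseudocount shrinks the ratios of genes at low levels such as these. With genes of whole fragments alone, 0 of 33 were higher in the mix culture, where LRP4 was left out, against 68 of all 11804 genes. In the tumors 1 of 37 was higher, with RNF43 left out, against 1211 of all 12566 genes. With a 1.5-fold limit 11 of 38 were higher in the acinar tumor, 4 of 36 in the mix culture and 6 of 40 in the tumors. Over all genes these were 886 of 13979, 447 of 13485 and 2631 of 14561. DKK1, TCF7, WNT11 and LRP4 between the tumors, and WNT5A, ROR1, NKD1, LGR4, LRP5, LRP6 and ZNRF3 between the settings, were kept under all 8. Of these alternatives, the 1.5-fold limit, the removal of the filter and the pseudocount of 0.1 could not lose any gene. The genes kept under all 8 were above 5 scaled counts in a library compared and had whole fragments in the libraries compared. The filter of 5 and the use of whole fragments alone therefore could not lose them either. Only the pseudocount of 5 and the changes of scaling could. WNT5B, WNT6 (tumors) and WNT10B were lost with a pseudocount of 5 and with a filter of 5 scaled counts, and WNT7A with that pseudocount.

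Over all genes, a pseudocount of 0.1 gave 478 higher and 692 lower in the acinar tumor and 192 and 522 in the mix culture. A pseudocount of 5 gave 114 and 101 in the acinar tumor, 33 and 73 in the mix culture and 864 and 774 in the tumors over cultures. A filter of 5 scaled counts left 203 lower in the acinar tumor. The 1.5-fold limit gave 886 and 1128 higher and lower in the acinar tumor, 447 and 921 in the mix culture, and 2631 and 2432 in the tumors over cultures. No scaling moved the median of all genes by over 0.1. No paired analysis was possible because each group has 1 library. Ligands under 1 scaled count in every library could not be compared at this depth.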
